A study of Mus musculus with 12 samples.

Results

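The unfolded protein response and the integrated stress response were read here through 40 genes in bone marrow monocytes, chosen by gene symbol from the 54532 genes that the count files list. They comprise stress sensors and kinases, the transcription factors these act through, feedback and stress effectors, enzymes of serine, asparagine and one-carbon metabolism, amino acid transporters, chaperones and folding enzymes of the endoplasmic reticulum (ER), and a pair of genes of ER-associated degradation. All 40 symbols were found. Ddit3 stands under 2 identifiers, of which 1 had 0 counts, and the other was used. Vldlr, a lipoprotein receptor, had 61 counts over the 12 libraries and was too low to test, so 39 genes were tested, each with at least 203 counts in every library.

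The cells were CD11b+Ly6Chi monocytes (classical inflammatory monocytes) sorted from mouse bone marrow. The mice had received 300 mM succinate, an intermediate of the tricarboxylic acid cycle, over 7 days, or had received none. Afterwards the sorted cells were kept in vitro for 4 h with bacterial lipopolysaccharide (LPS), which Toll-like receptor 4 recognises, or were left unstimulated. The sample titles give 4 h for the LPS-treated cells and no time for the unstimulated cells. If time in culture differed, its part in the LPS changes cannot be told apart. The 4 groups of 3 libraries were cells of succinate mice with LPS, cells of control mice with LPS, unstimulated cells of succinate mice and unstimulated cells of control mice. The labels used here give no strain, sex or age of the mice, no route or vehicle for succinate, and no word on separate or pooled animals per library. All p-values therefore rest on the spread among libraries, which may be technical.

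Library totals ran from 15975882 to 18306747 counts. Levels are given as depth-scaled counts (CPM) with scaling factors from trimmed means of M values (TMM). Changes are log2 fold changes ± SE from edgeR's quasi-likelihood test over 14324 genes, with Benjamini-Hochberg adjusted p-values, and a gene was called at an adjusted p below 0.05. Libraries also fell into classes that the groups do not explain. The mean log2 CPM of S100a4, Rpl24, Rpl10-ps3, Gm14303 and Rpl35a-ps2, genes picked for this split with the data known, was 3.14 to 4.06 in 5 libraries. These were replicate 3 of the control LPS cells and, in succinate as in control mice, replicates 2 and 3 without LPS. It was 0.83 to 1.45 in the other 7, which hold all 3 succinate LPS libraries and are called the low class. The second principal component held 8.1% of the variance over all tested genes. On it, replicate 3 of each succinate group (-19.80 without LPS and -17.56 with it) lay apart from replicates 1 and 2 (10.03 to 35.24). Replicate 3 was also the lowest of each control group, at -20.67 without LPS and -21.67 with it. Replicates 1 and 2 of the control groups lay at -14.26 to 4.33. Since the samples are bulk RNA, fewer cells of a type and less RNA per cell cannot be told apart.

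Cells answer misfolded protein in the ER through the sensors Ern1 (IRE1 alpha), Atf6 and Eif2ak3 (PERK). IRE1 splices the Xbp1 mRNA, ATF6 is cut to release a transcription factor, and PERK phosphorylates the initiation factor eIF2 alpha, which lowers translation in general while favouring that of Atf4. The kinases Eif2ak4 (GCN2, which senses uncharged tRNA), Eif2ak1 (HRI, which senses heme deficiency and mitochondrial stress) and Eif2ak2 (PKR, which senses double-stranded RNA) act on the same site of eIF2 alpha. ATF4 and its partners then drive genes of amino acid uptake and synthesis, while XBP1 and ATF6 drive chaperones and degradation factors. Much of this control acts on splicing, cleavage, phosphorylation and translation, none of which gene counts measure.

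Many of these genes are known to carry short elements that these factors bind, and the promoter windows show which members hold them. RefSeq windows of 300 bases (250 before to 50 after the start, GRCm38.p6) were at hand for 35 of the 40 genes, in 39 windows, and not for Atf6, Ppp1r15b, Slc7a5, Slc1a5 or Hyou1. The ER stress element (ERSE, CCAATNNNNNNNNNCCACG), bound by ATF6 together with NF-Y, was found on either strand in 7 of the 35 genes, against 0.119% of all 32851 windows. All 7 are chaperones or folding enzymes. They are listed so that the fixed ends and the varying middle can be compared, each on the strand that reads the element, with its fixed letters in capitals.
Hspa5: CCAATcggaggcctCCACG
Hsp90b1, farther site: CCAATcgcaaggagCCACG
Hsp90b1, nearer site: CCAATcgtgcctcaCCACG
Calr: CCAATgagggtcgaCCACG
Canx: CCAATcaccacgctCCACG
Pdia6: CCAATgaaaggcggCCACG
Dnajc3: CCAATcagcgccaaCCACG
Creld2: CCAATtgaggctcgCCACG
Counted from the start, with -1 the base before it, these sites began between -212 (Hsp90b1) and -65 (Hspa5). The second ER stress element (ERSE-II, ATTGG and CCACG with 1 free base between them) was found in Herpud1 and Dnajb11, against 0.0365% of all windows. The C/EBP-ATF response element (CARE, TGATGNAA), the site of ATF4, was found in 5 of the 35 genes, against 3.97% of all windows: Asns, Chac1, Trib3, Vldlr and Herpud1. It read TGATGaAA in Asns, TGATGtAA in Trib3 and TGATGcAA in Chac1, Vldlr and Herpud1, with the free letter in lower case. The core of the unfolded protein response element (TGACGTGG) matched in 0 of the 35, against 0.676% of all windows, and a wide NF-kB motif (GGGNNNNNCC) in 21, against 50.8%. A match is a description of letters, not of binding.

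The 250 bases before the start are shown whole for a gene that rose with LPS in both kinds of mice (Herpud1), a gene that fell in both (Canx), a gene that fell in control mice (Dnajc3) and a gene that was not called (Creld2). ERSE, ERSE-II and CARE matches are in capitals, and a match on the other strand shows as its complement, as for CARE in Herpud1 and ERSE in Creld2.
Herpud1, chr8:94386179-94386428, forward strand: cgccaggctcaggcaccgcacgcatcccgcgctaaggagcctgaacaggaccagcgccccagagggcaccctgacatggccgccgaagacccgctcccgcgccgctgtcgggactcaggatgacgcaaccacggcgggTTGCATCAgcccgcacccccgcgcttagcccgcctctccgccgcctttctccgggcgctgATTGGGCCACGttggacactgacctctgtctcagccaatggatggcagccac
Canx, chr11:50325674-50325923, reverse strand: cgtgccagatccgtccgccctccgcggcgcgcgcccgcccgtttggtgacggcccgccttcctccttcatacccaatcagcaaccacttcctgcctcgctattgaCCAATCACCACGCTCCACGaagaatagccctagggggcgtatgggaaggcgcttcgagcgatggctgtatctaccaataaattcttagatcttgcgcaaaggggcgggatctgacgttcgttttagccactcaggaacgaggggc
Dnajc3, chr14:118937682-118937931, forward strand: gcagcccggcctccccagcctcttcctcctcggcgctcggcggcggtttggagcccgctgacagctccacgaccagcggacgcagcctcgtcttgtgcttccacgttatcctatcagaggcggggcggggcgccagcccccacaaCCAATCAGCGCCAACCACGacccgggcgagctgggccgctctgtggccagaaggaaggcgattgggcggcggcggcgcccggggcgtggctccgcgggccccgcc
Creld2, chr15:88819396-88819645, forward strand: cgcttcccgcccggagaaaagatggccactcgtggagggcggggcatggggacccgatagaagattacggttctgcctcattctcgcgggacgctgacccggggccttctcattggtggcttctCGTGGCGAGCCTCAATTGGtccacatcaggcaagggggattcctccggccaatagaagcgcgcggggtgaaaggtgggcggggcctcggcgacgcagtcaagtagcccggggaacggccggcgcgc
Herpud1 was the only member with matches to an ER stress element and to CARE among the 35 genes searched.

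Levels per kilobase of exon (CPM divided by the merged exon length in GENCODE M21) put the members in order. In unstimulated cells of control mice, Atf4 stood highest at 197 ± 15.5 CPM per kb (mean ± SD, n = 3), followed by the transporter heavy chain Slc3a2 at 176 ± 20.8, a difference smaller than 2 SD of Slc3a2. The ER calcium-binding chaperone Calr followed at 139.9 ± 11.6 CPM per kb, then Edem1 at 113 ± 2.85, while Canx, Hspa5 and Pdia3 lay within 1 SD of each other at 104 to 106. The eIF2 alpha kinases stood low, with Eif2ak1 at 14.7 ± 1.10, Eif2ak3 at 6.58 ± 0.733 and Eif2ak4 at 3.75 ± 0.232 CPM per kb. With LPS, Slc3a2 was the highest member in control mice (312 ± 47.5 CPM per kb), while in succinate mice Slc3a2 (205 ± 3.45) and Atf4 (201 ± 4.85) differed by less than the SD of Atf4.

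LPS moved the stress response genes in both directions. In succinate mice, 5 of 39 genes rose and 14 fell (48.7%), where 30.2% of all tested genes were called (14.1% up and 16.2% down). In control mice, 7 rose and 12 fell (also 48.7%), where 30.1% of all tested genes were called (15.3% up and 14.8% down). Among genes with a mean of at least 10 CPM, a mark that all 39 passed, the background was 37% in succinate mice (16.7% up and 20.3% down) and 36% in control mice (17.9% up and 18.1% down). The median log2 fold change of the 39 genes was -0.153 in succinate mice and -0.169 in control mice, against -0.017 and -0.004 over all tested genes. Groups of LPS-treated and unstimulated cells did not overlap in 8 genes upward and 14 downward in succinate mice, where 19.9% and 21.5% of all tested genes did so, and in 6 upward and 16 downward in control mice, where 22.3% and 23.2% did. More members fell than rose in both kinds of mice, and the falls were spread over sensors, transporters and chaperones.

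Summed marker levels of other cells also differed with LPS. Secretory cells of the B lineage are rich in ER, and the summed level of 10 plasma cell and B cell markers was 151 to 216 CPM with LPS in succinate mice against 311 to 379 CPM without, and 127 to 207 against 306 to 344 CPM in control mice. Most of that sum was Ighm and Sdc1. The plasma cell genes Tnfrsf17 and Mzb1 had at most 2 and 27 counts in any library, with all 10 markers detected. The sum of 10 neutrophil markers was 17237 to 19544 CPM with LPS in succinate mice against 8589.8 to 11705 CPM without, and 15531 to 20691 against 9745 to 15249 CPM in control mice. Ngp and S100a9 were the largest terms of that sum. Of these 10 markers, 4 were called up and 1 down in succinate mice, and 5 up and 1 down in control mice. Mmp8 fell, with means of 44.6 CPM with LPS against 111 CPM without in succinate mice, and 54.3 against 147 CPM in control mice. The 8 markers of Ly6C-high monocytes were all present, at 4885 to 5335, 5414 to 6243, 4408 to 5011 and 5405 to 6083 CPM in sum in the succinate LPS, control LPS, unstimulated succinate and unstimulated control groups. Chil3 was the largest term of that sum, and single markers were called with LPS in both kinds of mice. The monocyte surface gene Ly6c2 rose (log2 fold change 1.16 ± 0.16 in succinate and 1.06 ± 0.16 in control mice). F13a1 (-1.88 ± 0.23 in succinate and -1.76 ± 0.23 in control mice), Fn1 (-1.61 ± 0.28 in succinate and -1.25 ± 0.28 in control mice) and the chemokine receptor Ccr2 (-1.34 ± 0.31 in succinate and -1.24 ± 0.31 in control mice) fell. The sums of T and NK cell, erythroid and dendritic cell markers (6 each, all detected, with Cd3e at 3 counts or fewer) did not exceed 65.5 CPM in any library. The part of other cells in the changes of the stress response genes was not tested.

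The LPS comparisons in succinate and in control mice share no library, but both come from the same fit of all 12 libraries with a common estimate of spread. All 5 genes that rose in succinate mice (Phgdh, Herpud1, Asns, Atf5 and Mthfd2) were among the 7 that rose in control mice (71.4% of that list), and the other 2 were Slc3a2 and Ppp1r15a. Of the falls, 9 genes were called in both, which is 64.3% of the 14 in succinate mice and 75% of the 12 in control mice. In no gene were the calls opposite, and 15 of the 39 were called in neither. The overlap of calls over all tested genes was not counted, so these shares cannot be called particular to the members. The count of calls in control mice depended on single libraries, as it was 12 without replicate 2 and 12 without replicate 3 of the unstimulated control group, and 11 and 10 without replicates 1 and 2 of the control LPS group. Within the low library class each unstimulated group kept a single library, as did the control LPS group within the high class. No separate counts of LPS calls are given for these subsets.

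**Figure D1:**
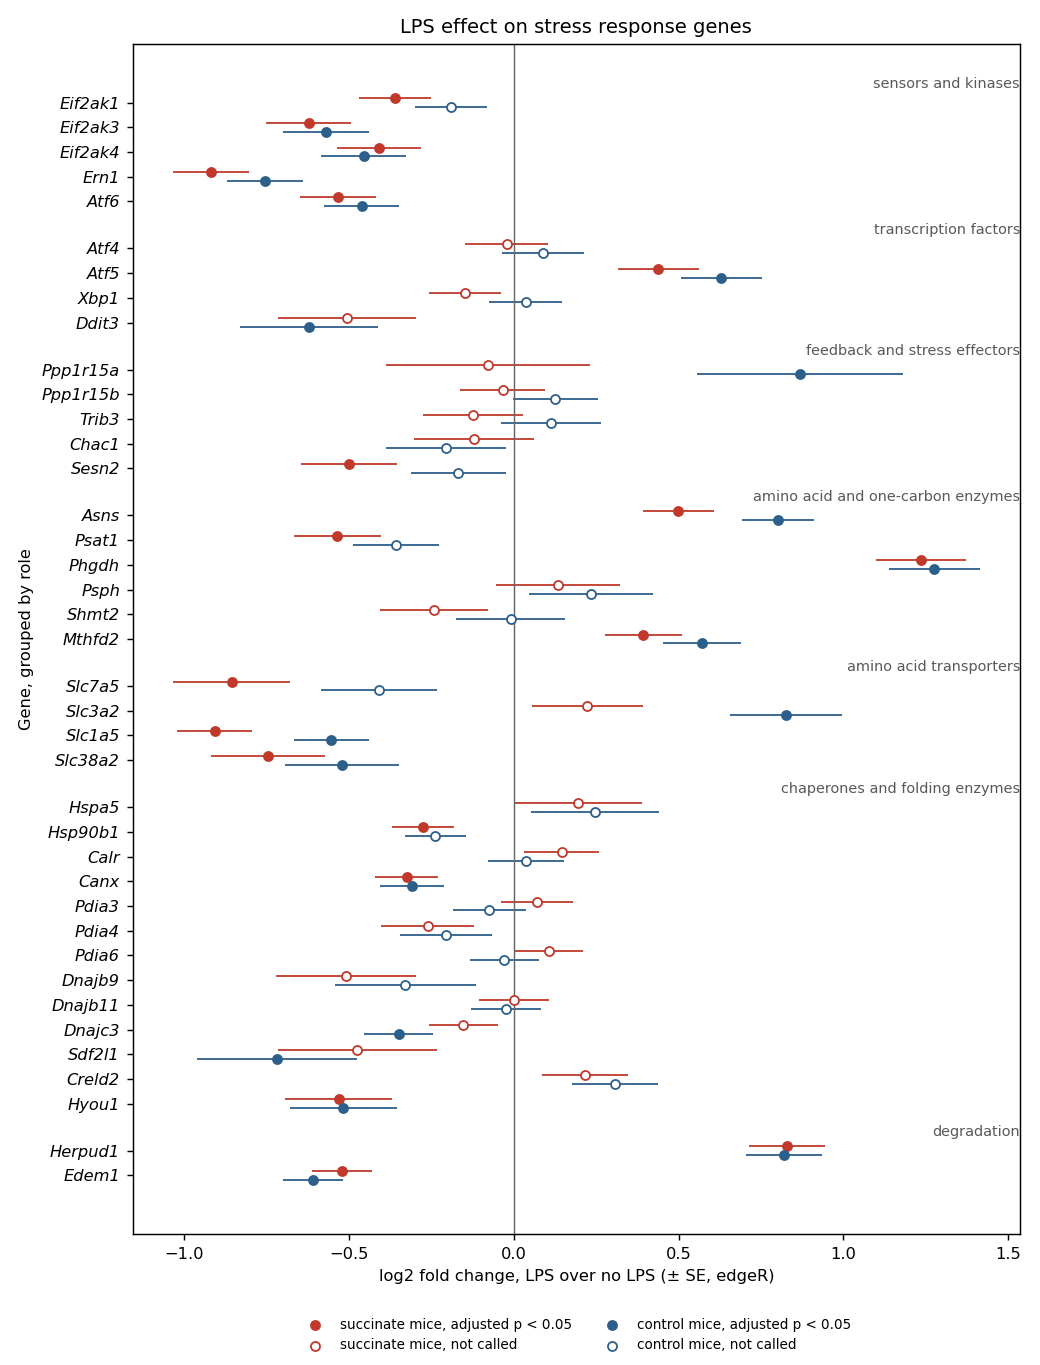
Log2 fold change of LPS over no LPS for the 39 tested stress response genes, grouped by role (vertical), with SE bars from edgeR, in succinate mice (red) and control mice (blue). Filled points have an adjusted p below 0.05. All 5 sensors and kinases lie left of 0 and Phgdh lies farthest right, at 1.24 ± 0.14 and 1.28 ± 0.14.

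The sensors fell with LPS. In succinate mice all 5 were called, where 16.2% of all tested genes were called down. In control mice 4 were, where 14.8% of all tested genes were called down, with the HRI kinase Eif2ak1 not called. The same counts came with library size alone, with DESeq2's scaling in edgeR and with DESeq2 itself. Ern1 (chromosome 11, 106394650 to 106487852, GRCm38), the kinase and nuclease that splices Xbp1, had the most negative LPS value of the 39 genes in both kinds of mice. It stood at 104, 110.5 and 99.1 CPM in LPS-treated cells of succinate mice, against 198, 223 and 172 CPM in their unstimulated cells. In control mice it stood at 109, 115 and 108 CPM with LPS, against 178, 211 and 172 CPM without. No LPS library reached the lowest unstimulated library. The log2 fold change was -0.92 ± 0.12 in succinate mice (adjusted p = 2.3e-05) and -0.76 ± 0.12 in control mice (adjusted p = 0.000135), called in every alternative setting run.

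The PERK gene Eif2ak3 had 34.4, 31.7 and 28.1 CPM with LPS in succinate mice, against 47.6, 54.6 and 42.6 CPM without. Its levels in control mice were 25.4, 25.8 and 29.0 CPM with LPS, against 36.1, 44.6 and 38.2 CPM without. The groups were apart in both kinds of mice, with log2 fold changes of -0.62 ± 0.13 (adjusted p = 0.00186) and -0.57 ± 0.13 (adjusted p = 0.00373) in succinate and control mice. Atf6, the ER membrane precursor of a transcription factor, had 145, 149 and 137 CPM with LPS in succinate mice, against 209.5, 227 and 188 CPM without. In control mice Atf6 had 144, 139 and 172 CPM with LPS, against 191, 230.3 and 204 CPM without. It too was lower in every LPS library than in any unstimulated library of the same mice (succinate -0.53 ± 0.12, adjusted p = 0.00244; control -0.46 ± 0.12, adjusted p = 0.0066). The GCN2 gene Eif2ak4, the member with the lowest level per kilobase among those tested, fell in both as well (succinate -0.41 ± 0.13, adjusted p = 0.0246; control -0.46 ± 0.13, adjusted p = 0.0147). Eif2ak1 had a log2 fold change of -0.36 ± 0.11 in succinate mice (adjusted p = 0.0216) and -0.19 ± 0.11 in control mice (adjusted p = 0.221).

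Several of these calls rested on single libraries. In control mice the Atf6 call was lost without replicate 2 of the control LPS group or replicate 2 of the unstimulated control group (-0.38 to -0.36, adjusted p = 0.0536 to 0.0574), and the Eif2ak4 call without replicates 1 or 2 of the control LPS group or replicate 3 of the unstimulated control group (-0.40 to -0.37, adjusted p = 0.0754 to 0.0886). In succinate mice the Eif2ak4 call was lost without replicate 3 of the succinate LPS group, replicate 2 of the control LPS group, replicate 2 of the unstimulated succinate group or replicate 2 of the unstimulated control group (-0.38 to -0.32, adjusted p = 0.0501 to 0.106), and the Eif2ak1 call without replicates 1 or 2 of the succinate LPS group or replicates 2 or 3 of the unstimulated succinate group (-0.35 to -0.32, adjusted p = 0.0602 to 0.0826). Reads of Eif2ak1 may be shared with Aimp2 and Ankrd61, which overlap it on the opposite strand, as the handling of strand is not known.

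Among the transcription factors, the mRNA levels of Atf4 and Xbp1 were not called. Atf4 had 479, 460.4 and 481 CPM with LPS in succinate mice, against 585, 451 and 406 CPM without. In control mice Atf4 had 515, 475 and 495 CPM with LPS, against 502, 429 and 464 CPM without. The groups overlapped, and the 95% intervals of its log2 fold change were -0.29 to 0.25 in succinate mice and -0.18 to 0.36 in control mice. For Xbp1, the intervals were -0.38 to 0.09 and -0.20 to 0.27, and its spliced and unspliced forms cannot be separated in counts per gene. Atf5, an ATF4-related factor that serves the mitochondrial stress response, rose. It reached 155, 156 and 190.3 CPM with LPS in succinate mice, against 125, 140.5 and 105 CPM without. In control mice Atf5 reached 198, 191 and 220.1 CPM with LPS, against 137, 125 and 132 CPM without. All LPS libraries stood above the unstimulated libraries of the same mice (succinate 0.44 ± 0.12, adjusted p = 0.0142; control 0.63 ± 0.12, adjusted p = 0.00117). Atf5 lies opposite Nup62, whose reads could be mixed with its own if strand was ignored, and its call in succinate mice was lost without replicate 3 of the succinate LPS group or replicate 3 of the unstimulated succinate group (0.33, adjusted p = 0.0605 to 0.0734).

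Ddit3 encodes CHOP, the factor that links lasting ER stress to cell death. It had 19.1, 22.9 and 33.0 CPM with LPS in succinate mice, against 40.2, 24.1 and 42.4 CPM without. In control mice Ddit3 had 31.3, 27.7 and 29.4 CPM with LPS, against 42.8, 43.1 and 50.2 CPM without. The groups overlapped in succinate mice and were apart in control mice. The fall was called in control mice (log2 fold change -0.62 ± 0.21, adjusted p = 0.0352) and not in succinate mice (log2 fold change -0.51 ± 0.21, adjusted p = 0.0828), where 4 alternative settings called it. The call in control mice was lost without replicates 1, 2 or 3 of the control LPS group or replicates 1, 2 or 3 of the unstimulated control group (-0.66 to -0.52, adjusted p = 0.0542 to 0.145). The opposite strand of the Ddit3 locus holds Mars and Gm4189, so the same reservation on strand applies.

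Feedback and stress effectors showed few calls. Ppp1r15a (GADD34), the stress-inducible subunit that directs a phosphatase to eIF2 alpha, had 80.8, 89.8 and 65.4 CPM with LPS in succinate mice, against 118, 92.5 and 38.9 CPM without. In control mice Ppp1r15a had 150.3, 124 and 81.5 CPM with LPS, against 81.5, 56.7 and 56.8 CPM without. Unstimulated succinate libraries held both the lowest and the third-highest of the 12 values, and the groups overlapped in both kinds of mice. It was called up in control mice (log2 fold change 0.87 ± 0.31, adjusted p = 0.048) and not in succinate mice (log2 fold change -0.08 ± 0.31, adjusted p = 0.88). The rise in control mice was called in 11 of 23 alternative settings, and single libraries ended it: it was lost without replicates 1 or 2 of the succinate LPS group, replicates 1 or 2 of the control LPS group, replicate 2 of the unstimulated succinate group or replicates 2 or 3 of the unstimulated control group (0.69 to 0.87, adjusted p = 0.0544 to 0.162). It was also not called by DESeq2 (0.88), by limma-voom (0.84), with library size alone (0.79) or with the library class as a covariate (0.61).

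Ppp1r15b, the constitutive partner of the same phosphatase, had log2 fold changes of -0.03 ± 0.13 in succinate mice and 0.13 ± 0.13 in control mice and was not called. The pseudokinase Trib3, an inhibitor of AKT that CHOP induces, stood at -0.12 ± 0.15 and 0.11 ± 0.15 and was not called either. Chac1, which degrades glutathione and is among the most ATF4-dependent genes, was not called at -0.12 ± 0.18 and -0.21 ± 0.18. Sesn2 encodes sestrin 2, a leucine sensor that restrains mTORC1. It had 81.0, 80.5 and 73.5 CPM with LPS in succinate mice, against 124, 122 and 86.2 CPM without, and these groups did not overlap (log2 fold change -0.50 ± 0.14, adjusted p = 0.0165). In control mice it was not called (-0.17 ± 0.14, adjusted p = 0.427), and the difference between the effects was not called (-0.33 ± 0.20, adjusted p = 1). The Sesn2 call was lost without replicate 3 of the succinate LPS group or replicates 1 or 2 of the unstimulated succinate group (-0.46 to -0.41, adjusted p = 0.0581 to 0.0661). Vldlr, with 1 to 16 counts per library, gives no comparison.

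**Figure D2:**
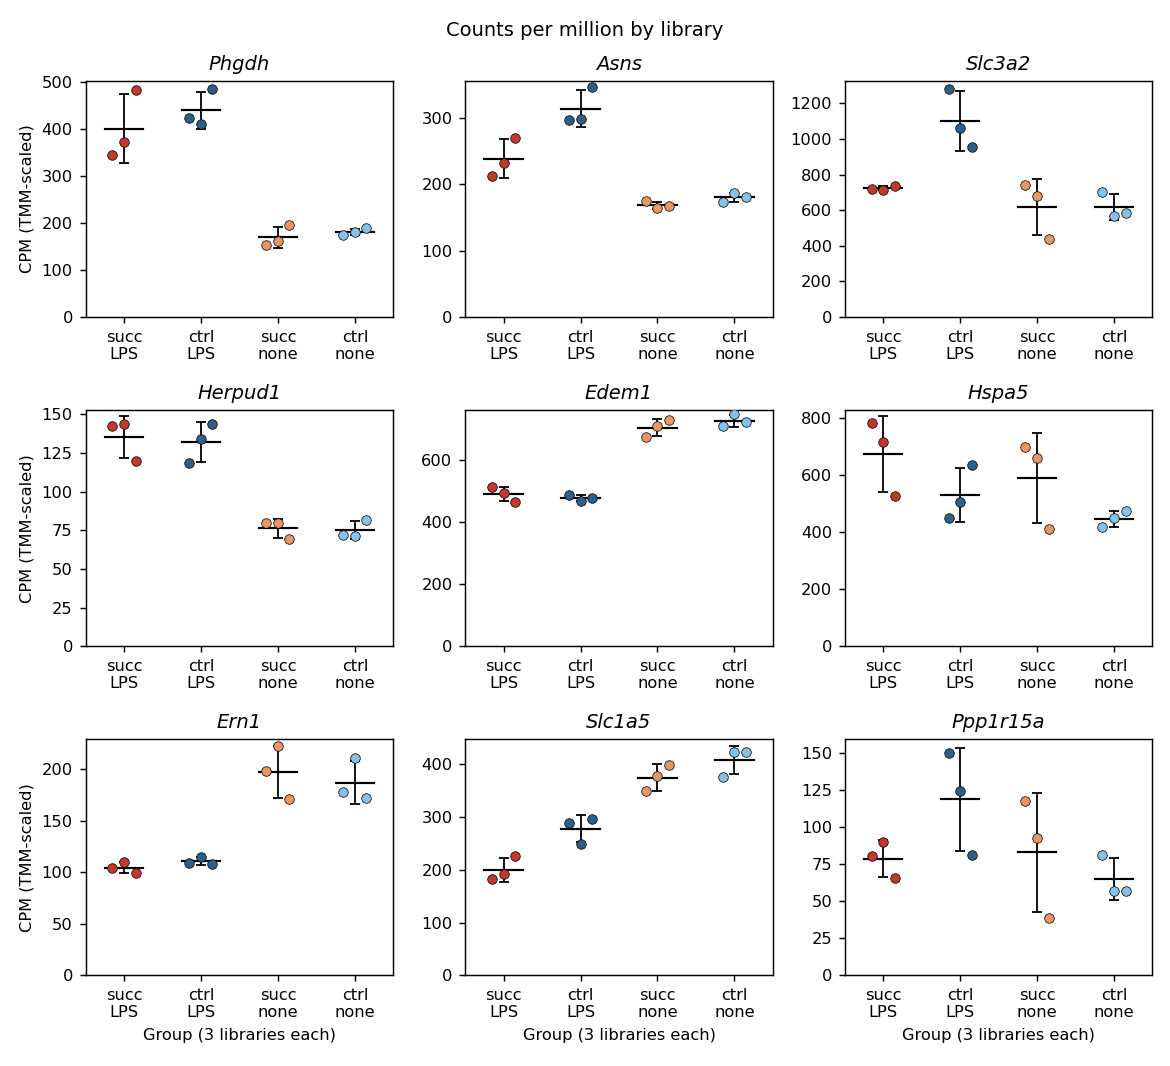
TMM-scaled CPM of 9 stress response genes in every library (points), with the mean (line) and SD (bars) of each group of 3 libraries, for succinate LPS, control LPS, unstimulated succinate and unstimulated control groups. Phgdh, Asns and Herpud1 are higher and Ern1, Edem1 and Slc1a5 lower in every LPS library than in the unstimulated libraries of the same mice.

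Of the 6 enzymes of amino acid and one-carbon metabolism, 3 rose in both kinds of mice. Over all tested genes 14.1% were called up in succinate mice and 15.3% in control mice. Phgdh (chromosome 3, 98313170 to 98339990), the first and rate-limiting enzyme of serine synthesis from glycolysis, had the largest rise of the 39 genes in both kinds of mice. It reached 344, 373 and 483 CPM with LPS in succinate mice, against 152, 162 and 195 CPM without. In control mice Phgdh reached 423, 409 and 484 CPM with LPS, against 174, 181 and 188 CPM without. The lowest LPS library stood above every unstimulated library. These are rises of 2.35-fold in succinate mice (log2 1.24 ± 0.14, adjusted p = 6.41e-06) and 2.42-fold in control mice (log2 1.28 ± 0.14, adjusted p = 4.41e-06), called in every alternative setting run.

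The other enzymes of serine synthesis were not called up. Psat1, the second step, had 93.2, 106 and 138 CPM with LPS in succinate mice, against 162, 154 and 172 CPM without. In control mice Psat1 had 134, 119 and 141 CPM with LPS, against 170.3, 159.9 and 175 CPM without. It was lower in every LPS library, and the fall was called in succinate mice (log2 fold change -0.53 ± 0.13, adjusted p = 0.00599) but not in control mice (log2 fold change -0.36 ± 0.13, adjusted p = 0.0516), where 8 alternative settings called it. Psph, the last step, was not called (succinate 0.13 ± 0.19, control 0.23 ± 0.19), nor was Shmt2, the mitochondrial enzyme that turns serine to glycine (-0.24 ± 0.16 and -0.01 ± 0.16). Mthfd2, the next mitochondrial enzyme of the folate cycle, rose. It had 267, 287 and 312 CPM with LPS in succinate mice, against 255, 215 and 189.6 CPM without. In control mice Mthfd2 had 312, 329 and 322 CPM with LPS, against 235, 208 and 204 CPM without. The groups were apart in both (succinate 0.39 ± 0.12, adjusted p = 0.0196; control 0.57 ± 0.12, adjusted p = 0.00168), and the call in succinate mice was lost without replicates 2 or 3 of the succinate LPS group or replicates 2 or 3 of the unstimulated succinate group (0.30 to 0.40, adjusted p = 0.0531 to 0.0801).

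Asns (chromosome 6, 7675169 to 7693254), which makes asparagine and is a textbook ATF4 target, had 212, 232 and 269 CPM with LPS in succinate mice, against 174, 164 and 166 CPM without. In control mice Asns had 296, 298 and 346 CPM with LPS, against 173, 186 and 179.9 CPM without. Every LPS library was above the unstimulated libraries, and the unstimulated libraries of both kinds of mice lay close together. The rise was 0.50 ± 0.11 in succinate mice (adjusted p = 0.00255) and 0.80 ± 0.11 in control mice (adjusted p = 4.22e-05).

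Of the amino acid transporters, the subunits of the leucine transporter LAT1 were called in opposite directions, each in 1 kind of mice. Slc3a2 (CD98, chromosome 19, 8706882 to 8723369), the heavy chain shared by several transporters, had 718, 715 and 737 CPM with LPS in succinate mice, against 739.7, 678 and 441 CPM without. In control mice Slc3a2 had 1283, 1061 and 954 CPM with LPS, against 704, 568 and 587 CPM without. The groups overlapped in succinate mice and were apart in control mice. The rise was called in control mice (log2 fold change 0.83 ± 0.17, adjusted p = 0.00167) and not in succinate mice (log2 fold change 0.22 ± 0.17, adjusted p = 0.352). Slc7a5, the light chain that carries the amino acids, had 114, 133 and 166 CPM with LPS in succinate mice, against 223, 291 and 232 CPM without. In control mice Slc7a5 had 163, 151 and 231 CPM with LPS, against 210.1, 267 and 246 CPM without. It fell in succinate mice with no overlap (log2 fold change -0.86 ± 0.18, adjusted p = 0.00179) and was not called in control mice (log2 fold change -0.41 ± 0.18, adjusted p = 0.0966), where 4 alternative settings called it.

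Slc1a5 (ASCT2), a sodium-dependent carrier of glutamine and other neutral amino acids, fell in both. It had 182, 192 and 226 CPM with LPS in succinate mice, against 349, 377 and 398 CPM without. In control mice Slc1a5 had 288, 249 and 296 CPM with LPS, against 376, 423 and 423 CPM without. The groups were apart, with log2 fold changes of -0.91 ± 0.11 in succinate mice (adjusted p = 2.23e-05) and -0.55 ± 0.11 in control mice (adjusted p = 0.00167). Slc38a2 (SNAT2), which amino acid shortage is known to induce, had 573, 484 and 403 CPM with LPS in succinate mice, against 893, 971 and 584 CPM without. In control mice Slc38a2 had 406, 486 and 488 CPM with LPS, against 673, 697 and 608 CPM without. It fell without overlap (succinate -0.75 ± 0.17, adjusted p = 0.00422; control -0.52 ± 0.17, adjusted p = 0.034), and the call in control mice was lost without replicates 1, 2 or 3 of the control LPS group or replicates 1, 2 or 3 of the unstimulated control group (-0.55 to -0.41, adjusted p = 0.0614 to 0.152).

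Among the 13 chaperones and folding enzymes, 3 fell in succinate mice and 4 in control mice, and 0 rose in either. The called share was 23.1% in succinate mice, below the 30.2% of all tested genes (16.2% down), and 30.8% in control mice, near the 30.1% of all tested genes (14.8% down). Hspa5 (BiP), the main ER chaperone and the usual readout of the unfolded protein response, had 784, 715 and 527 CPM with LPS in succinate mice, against 700.3, 659 and 410.4 CPM without. In control mice Hspa5 had 449.5, 506 and 634 CPM with LPS, against 418, 449.6 and 473 CPM without. The groups overlapped, replicate 3 was the lowest of both succinate groups, and no LPS call was made (95% intervals -0.22 to 0.61 in succinate mice and -0.17 to 0.66 in control mice). Canx, the membrane lectin that retains unfolded glycoproteins, had 425, 432 and 387 CPM with LPS in succinate mice, against 536, 528 and 493 CPM without. In control mice Canx had 389.8, 393 and 428 CPM with LPS, against 469.8, 512 and 516 CPM without. It fell without overlap (succinate -0.32 ± 0.10, adjusted p = 0.0191; control -0.31 ± 0.10, adjusted p = 0.0253). The call was lost in succinate mice without replicate 3 of the succinate LPS group (-0.28, adjusted p = 0.0822), and in control mice without replicates 1 or 2 of the control LPS group or replicates 2 or 3 of the unstimulated control group (-0.27 to -0.25, adjusted p = 0.117 to 0.138).

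Hyou1 (GRP170), which exchanges nucleotide on BiP, had 125, 112 and 93.8 CPM with LPS in succinate mice, against 153, 192 and 133 CPM without. In control mice Hyou1 had 82.9, 88.9 and 117 CPM with LPS, against 123, 142 and 149.5 CPM without. It was lower in every LPS library (succinate -0.53 ± 0.16, adjusted p = 0.0216; control -0.52 ± 0.16, adjusted p = 0.0251). The call was lost in succinate mice without replicates 2 or 3 of the succinate LPS group or replicate 2 of the unstimulated succinate group (-0.54 to -0.38, adjusted p = 0.0578 to 0.114), and in control mice without replicates 1 or 2 of the control LPS group or replicates 2 or 3 of the unstimulated control group (-0.48 to -0.39, adjusted p = 0.0884 to 0.134). The falls of Hsp90b1, Dnajc3 and Sdf2l1 were each called in 1 kind of mice. Hsp90b1 (GRP94), the ER member of the HSP90 family, fell in succinate mice (log2 fold change -0.28 ± 0.09, adjusted p = 0.0361; control -0.24 ± 0.09), a call made in 7 of 22 alternative settings and lost without replicates 1, 2 or 3 of the succinate LPS group, replicates 1, 2 or 3 of the control LPS group, replicates 1 or 2 of the unstimulated succinate group or replicates 2 or 3 of the unstimulated control group (-0.28 to -0.24, adjusted p = 0.0579 to 0.11). Dnajc3 (p58IPK), a co-chaperone of BiP, fell in control mice (log2 fold change -0.35 ± 0.10, adjusted p = 0.0201; succinate -0.15 ± 0.10), lost without replicates 1 or 2 of the control LPS group or replicates 2 or 3 of the unstimulated control group (-0.35 to -0.27, adjusted p = 0.0557 to 0.123). Sdf2l1, a small partner of ER chaperones, fell in control mice (log2 fold change -0.72 ± 0.24, adjusted p = 0.0362; succinate -0.47 ± 0.24), lost without replicates 1, 2 or 3 of the control LPS group or replicates 1 or 3 of the unstimulated control group (-0.78 to -0.51, adjusted p = 0.0512 to 0.195).

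Like Hspa5, 7 others of this role were called in neither kind of mice. The log2 fold changes were 0.15 ± 0.12 in succinate and 0.04 ± 0.12 in control mice for Calr, the soluble lectin chaperone, and 0.07 ± 0.11 and -0.07 ± 0.11 for Pdia3, the disulfide isomerase that works with it. The isomerases Pdia4 and Pdia6 had -0.26 ± 0.14 and 0.11 ± 0.10 in succinate mice, and -0.21 ± 0.14 and -0.03 ± 0.10 in control mice. Dnajb9 (ERdj4), a co-chaperone that the IRE1 branch induces, had -0.51 ± 0.21 in succinate mice and -0.33 ± 0.21 in control mice, and 5 alternative settings called it in succinate mice. Dnajb11 (ERdj3) lay nearest 0 of the 13, at 0.00 ± 0.11 and -0.02 ± 0.11. Creld2, an ER stress-inducible isomerase-like protein, had 0.22 ± 0.13 and 0.31 ± 0.13. Of the 7 genes with an ERSE match, Hsp90b1, Canx and Dnajc3 were called down in at least 1 kind of mice, and Hspa5, Calr, Pdia6 and Creld2 were not called. In the same count, 17 of the 39 members (43.6%), 19.1% of all tested genes and 23.1% of those with a mean of at least 10 CPM were called down in at least 1 kind of mice.

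The degradation genes Herpud1 and Edem1 changed in opposite directions in both kinds of mice. Herpud1 (chromosome 8, 94386438 to 94395377), an ER membrane organiser of the HRD1 ubiquitin ligase complex, reached 142, 144 and 120.0 CPM with LPS in succinate mice, against 79.7, 80.0 and 69.1 CPM without. In control mice Herpud1 reached 118, 134 and 144 CPM with LPS, against 71.8, 71.2 and 81.6 CPM without. All LPS libraries lay above all unstimulated ones (succinate 0.83 ± 0.12, adjusted p = 5.86e-05; control 0.82 ± 0.12, adjusted p = 6.22e-05). Edem1 (chromosome 6, 108828641 to 108859356), which trims mannose from misfolded glycoproteins to mark them for disposal, had 513, 495 and 467 CPM with LPS in succinate mice, against 675, 709 and 730.5 CPM without. In control mice Edem1 had 486, 468 and 477 CPM with LPS, against 712, 748 and 722 CPM without. All LPS libraries lay below all unstimulated ones (succinate -0.52 ± 0.09, adjusted p = 0.000483; control -0.61 ± 0.09, adjusted p = 0.000115). Both genes were called in every alternative setting run.

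**Figure D3:**
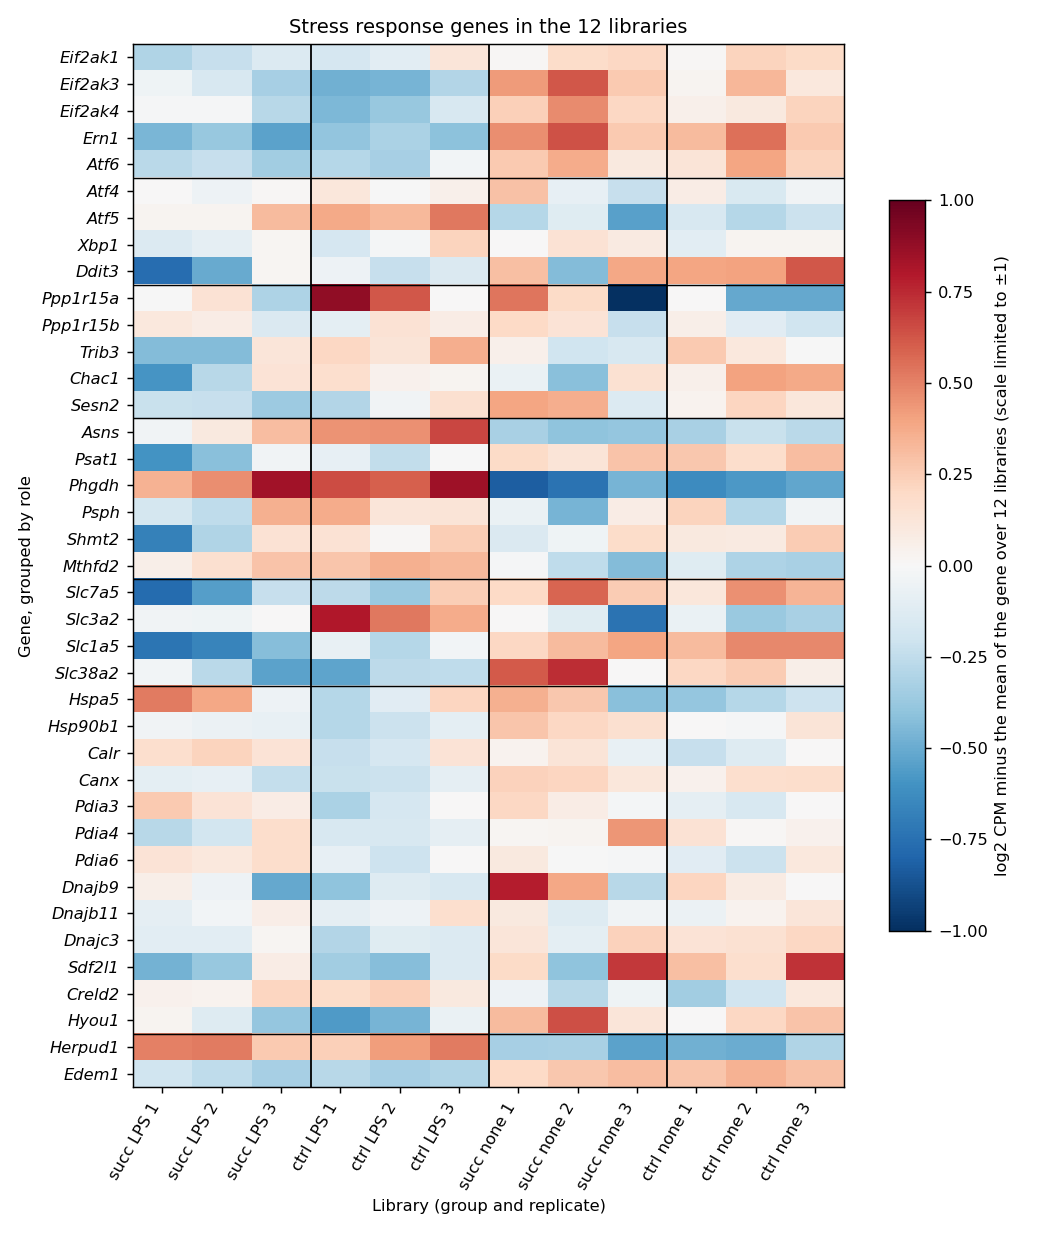
Log2 CPM of the 39 tested genes (rows, grouped by role) in the 12 libraries (columns), each minus the mean of the gene over the 12, on a colour scale limited to ±1 (red above the mean, blue below). Phgdh and Ern1 separate the 6 LPS libraries from the 6 unstimulated ones, whereas Ppp1r15a and Hspa5 differ as much between libraries of a group.

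Succinate treatment gave no call among the 39 genes, with or without LPS. The first of these comparisons set LPS-treated cells of succinate mice against LPS-treated cells of control mice. edgeR called 0 of the 39, where 0.0628% of all tested genes were called (9 genes, all lower). At an unadjusted p below 0.05 there were 10 (3 higher and 7 lower, together 25.6%), where 11.7% of all tested genes passed that mark. The members had a median SE of 0.129 in this comparison, against 0.19 over all tested genes. Shares at that mark, and of groups that do not overlap, were counted over all tested genes alone, whatever their level. The part of level in these differences was not tested. DESeq2 called 3, limma-voom 0, edgeR with no filter 3, edgeR with the library class as a covariate 1, and edgeR without replicate 3 of the succinate LPS group 3, all lower in succinate mice. These genes were Slc1a5, Slc3a2 and Asns in DESeq2, Slc1a5, Slc3a2 and Ppp1r15a with no filter, Slc3a2 with the class covariate, and Slc1a5, Asns and Trib3 without that library. With no filter the SE was nearly the same for its 3 genes (0.136 to 0.138).

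The groups of LPS-treated cells did not overlap in 10 genes. Lower in succinate mice were Slc1a5, Slc3a2, Asns, Atf5 and Trib3 (12.8% of 39, against 10.2% of all tested genes). Higher were Hsp90b1, Calr, Pdia3, Pdia6 and Dnajc3 (also 12.8%, against 6.95%). The glutamine carrier Slc1a5 came nearest to a call: its 182, 192 and 226 CPM in succinate mice lay below the 288, 249 and 296 CPM in control mice (log2 -0.47 ± 0.11, adjusted p = 0.0965). Slc3a2, at 718, 715 and 737 CPM in succinate mice against 1283, 1061 and 954 CPM in control mice, had the largest difference of the 39 (-0.60 ± 0.17, adjusted p = 0.15). Asns, at 212, 232 and 269 CPM in succinate mice against 296, 298 and 346 CPM in control mice, differed by -0.40 ± 0.11 (adjusted p = 0.135). Trib3, at 26.0, 26.2 and 38.3 CPM in succinate mice against 40.6, 38.6 and 45.3 CPM in control mice, differed by -0.46 ± 0.15 (adjusted p = 0.234), with replicate 3 of the succinate group close to the control libraries.

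By role, all 6 enzymes of amino acid and one-carbon metabolism had values below 0 in this comparison, not called, with a median of -0.22, and 11 of the 13 chaperones and folding enzymes had values above 0, not called, with a median of 0.12. Over all tested genes the median was -0.014, and library size alone in place of TMM moved it to 0.11. Under that scaling all 6 enzymes were still below 0 (median -0.10), all 13 chaperones above 0 (median 0.24), and again none was called. Pdia3 had 416, 381 and 365 CPM in succinate mice against 278, 308 and 348 CPM in control mice (0.31 ± 0.11, adjusted p = 0.268). Hspa5 had the largest positive value of the 39 at 0.35 ± 0.19 (adjusted p = 0.518), though its groups overlapped. Herpud1 (0.04 ± 0.11) and Edem1 (0.04 ± 0.09), which LPS moved, differed little between the mice, with 95% intervals of -0.21 to 0.28 and -0.15 to 0.24. The mean level of Phgdh was 399.9 ± 73.4 CPM in succinate mice and 439 ± 40.1 CPM in control mice (SD over 3 libraries each), a difference smaller than the SD.

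Without LPS, cells of succinate and control mice were set against each other in the same way. edgeR called 0 of the 39, where 0% of all tested genes were called. DESeq2 and limma-voom also called 0, and 1 gene, Eif2ak3, had an unadjusted p below 0.05, where 3.73% of all tested genes did. The values ran from -0.377 (Chac1) to 0.4 (Hspa5), with a median of 0.026. Groups were apart in Hsp90b1 and Ddit3 alone among the 39. Hsp90b1 had 302, 287 and 279 CPM in succinate mice, against 250.4, 246 and 272 CPM in control mice, and Ddit3 had 40.2, 24.1 and 42.4 CPM in succinate mice, against 42.8, 43.1 and 50.2 CPM in control mice. Of all tested genes, 3.65% were apart upward and 4.27% downward. Hspa5, at 700.3, 659 and 410.4 CPM in succinate mice against 418, 449.6 and 473 CPM in control mice, was high in replicates 1 and 2 and low in replicate 3. Its log2 difference was 0.40 ± 0.19 (adjusted p = 0.958), and 0.60 without that replicate, not called.

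**Figure D4:**
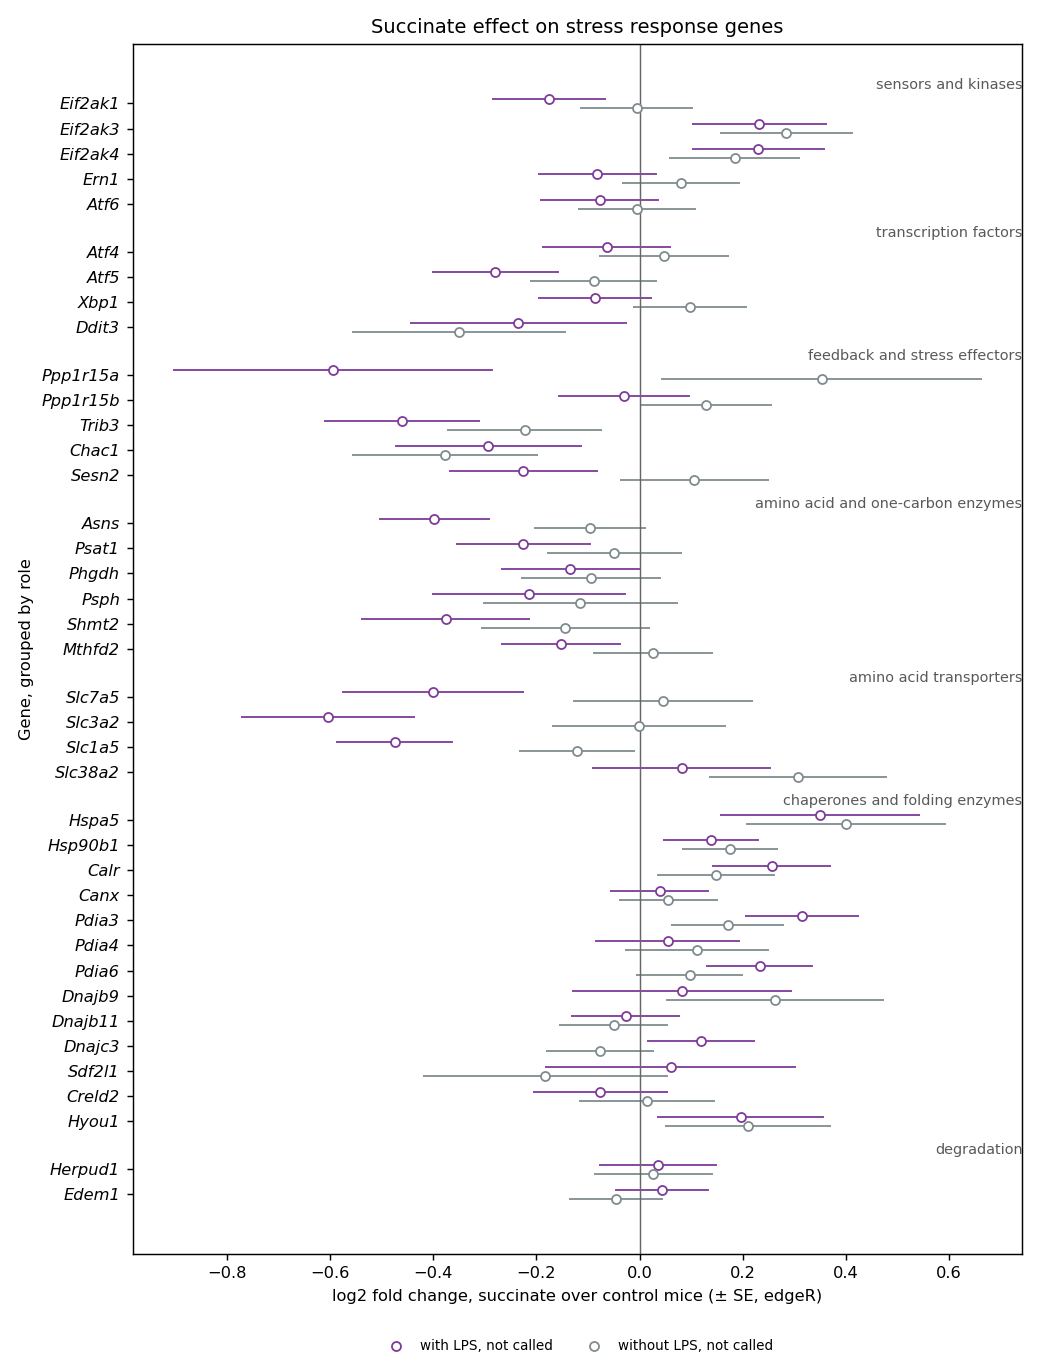
Log2 fold change of succinate over control mice for the 39 tested genes, grouped by role (vertical), with SE bars from edgeR, in LPS-treated cells (purple) and unstimulated cells (grey). No point has an adjusted p below 0.05. Slc3a2 (-0.60 ± 0.17) and Ppp1r15a (-0.59 ± 0.31) lie farthest left with LPS.

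Whether succinate altered the LPS effect was tested by the interaction, the LPS effect in succinate mice minus that in control mice. edgeR called 0 of the 39, where 0% of all tested genes were called. DESeq2 and limma-voom also called 0. With no filter edgeR called Ppp1r15a (-0.90 ± 0.20), at a value near that of the main fit but with a smaller SE. In the main fit 3 genes had an unadjusted p below 0.05, where 3.91% of all tested genes did. These were Ppp1r15a (-0.95 ± 0.44), Slc3a2 (-0.60 ± 0.24) and Slc1a5 (-0.35 ± 0.16), each with an adjusted p of 1. The 95% interval was -1.11 to -0.09 for Slc3a2 and -1.89 to -0.01 for Ppp1r15a. The calls of Slc3a2 and Ppp1r15a with LPS in control mice, and those of Sesn2 (-0.33 ± 0.20) and Slc7a5 (-0.45 ± 0.25) in succinate mice, are therefore not shown to differ between the mice. Intervals were narrower for Herpud1 (-0.34 to 0.36) and Edem1 (-0.19 to 0.36).

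Other genes of the same pathways were read from a list of 97 symbols, of which 92 were tested. With LPS, 16 rose and 14 fell in succinate mice, and 20 rose and 10 fell in control mice (32.6% in each), close to the 30.2% and 30.1% called over all tested genes. Of each list, the called gene with the smallest p in each direction and kind of mice is named, with its value in both. The 16 upstream regulators included PKR. Eif2ak2, an interferon-stimulated gene, rose by 1.15 ± 0.11 in succinate mice (adjusted p = 2.19e-06) and 1.26 ± 0.12 in control mice (adjusted p = 9.22e-07), while the other 3 eIF2 alpha kinases had values below 0. The ER transcription factor Creb3l2 fell in both (-1.10 ± 0.21 in succinate and -0.83 ± 0.21 in control mice), as did the protease Mbtps1, which cuts ATF6 (-0.33 ± 0.09 in succinate and -0.47 ± 0.09 in control mice). In all, 5 regulators rose and 2 fell in succinate mice, and 3 and 2 did in control mice.

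Of 20 tested further targets and partners of ATF4 and CHOP, 7 rose and 3 fell in succinate mice, and 9 rose and 1 fell in control mice, or 50% in each. Over all tested genes 14.1% rose and 16.2% fell in succinate mice, and 15.3% rose and 14.8% fell in control mice. The median of the 20 was -0.081 in succinate mice, against -0.017 over all tested genes, and 0.434 in control mice, against -0.004. In the interaction edgeR called 0 of the 20, so their LPS effects are not shown to differ between the mice. At an unadjusted p below 0.05 the interaction had 3 of them (15%), where 3.91% of all tested genes passed. The repressor Jdp2 rose in both (0.91 ± 0.10 and 1.02 ± 0.10), and the thioredoxin inhibitor Txnip fell in both (-0.41 ± 0.10 and -0.42 ± 0.10). Of 22 further genes of folding and ER-associated degradation, 2 rose and 5 fell in succinate mice, and 3 and 4 in control mice (31.8% in each). The oxidoreductase Txndc5 fell by the most in this list (-1.37 ± 0.14 in succinate and -1.14 ± 0.14 in control mice), and the disulfide-generating Ero1lb fell in both too (-0.91 ± 0.10 in succinate and -0.85 ± 0.10 in control mice). The ER stress-induced Manf rose in both (0.48 ± 0.12 in succinate and 0.38 ± 0.13 in control mice). Derl2, a channel subunit for degradation, was called up in control mice (0.40 ± 0.10) and not in succinate mice (0.25 ± 0.10, adjusted p = 0.0832).

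Of 14 tested translocation and transport genes, 1 rose and 1 fell in succinate mice, and 2 rose and 0 fell in control mice, or 14.3% in each. Over all tested genes 30.2% were called in succinate mice and 30.1% in control mice. The channel subunit Sec61b was called up in succinate mice (0.60 ± 0.18; control 0.23 ± 0.18, not called), and Sec61a1 was called down there (-0.26 ± 0.09; control -0.19 ± 0.09, not called). The vesicle coat genes Sec23b (0.32 ± 0.11) and Sec24d (0.68 ± 0.23) were called up in control mice and not in succinate mice (0.23 ± 0.11 and 0.01 ± 0.23), Sec24d being named after its values were seen. Of 20 aminoacyl-tRNA synthetases, 1 rose and 3 fell in succinate mice (20%), and 3 rose and 3 fell in control mice (30%). The arginine and glutamine enzymes Rars (-0.78 ± 0.12 in succinate and -0.49 ± 0.12 in control mice) and Qars (-0.27 ± 0.09 in succinate and -0.44 ± 0.09 in control mice) fell in both, and the threonine enzyme Tars rose in both (0.33 ± 0.10 in succinate and 0.43 ± 0.10 in control mice). The glycine enzyme Gars was called up in control mice (0.50 ± 0.11) and not in succinate mice (0.31 ± 0.11, adjusted p = 0.0501). None of the 92 genes was called by edgeR between succinate and control mice, with 19 (20.7%) at an unadjusted p below 0.05 with LPS and 3 (3.26%) without. Over all tested genes, whatever their level, the shares at that mark were 11.7% with LPS and 3.73% without. The interaction also gave 0 calls among the 92.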

How the data were processed

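The deposited files give raw read counts per gene, made by the authors, whose processing notes name the tool Trim Galore and the build mm10. For the aligner, counter, annotation and strand handling, no source used here gives a name. Members and gene lists were chosen with earlier results of these data known. Counts were tested with edgeR 4.0.16 (R 4.3.3): filterByExpr kept 14324 of 28563 genes with a count, libraries were scaled by TMM, and the quasi-likelihood test used all 12 libraries with group means as coefficients (biological coefficient of variation 0.167 in common). SE is the absolute log2 fold change over the root of F, and 95% intervals use it. The median SE of the 39 tested members was 0.128 to 0.182 across the 5 comparisons. Groups came from sample titles. Every member called in a comparison is named, of other lists the called gene with the smallest p per direction. Alternatives were other filters and scalings, DESeq2 1.42.0, limma-voom (limma 3.58.1), replicate number as a block, only the libraries compared, the library class, and each library left out. The high class alone was added after seeing the data. Coordinates and exon lengths are from GENCODE M21 (GRCm38), promoters from RefSeq (GRCm38.p6). The fit was also run on simulated counts with a common spread for all genes and no library classes. That run cannot tell how the fit behaves under the class split seen here. Deviations from group means correlated between same-numbered libraries of the unstimulated groups (0.12 to 0.26 in the 3 pairs), and not in every pair of the other comparisons. Same-numbered libraries of the unstimulated groups were also of the same library class. Whether pairing or class lay behind these correlations was not tested. Values of 1 monocyte marker are not reported here.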

Additional observations from a re-analysis of the deposited data

How the results depend on the processing

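Counts of called members are out of 39 unless stated. With LPS in succinate mice (19 as reported) the count was 11 in the low library class alone and 15 to 19 without single libraries. With LPS in control mice (19) it was 7 in the low class, 7 in the high class and 10 to 20 without single libraries. Between succinate and control mice with LPS (0) it was 3 with no filter, 3 with DESeq2, 1 with the class covariate and 0 to 3 without single libraries, the 3 being without replicate 3 of the succinate LPS group. Without LPS it was 0 in every setting, and for the interaction 1 with no filter and 0 otherwise. With the replicate block the counts were 22 and 21 for LPS in succinate and control mice, and 0 for the rest. The class covariate ended the LPS calls of Eif2ak1, Eif2ak4, Sesn2, Mthfd2, Hsp90b1, Canx and Hyou1 in succinate mice. There it added a call of Dnajb9 (-0.66). In control mice it ended the LPS calls of Ppp1r15a and Sdf2l1. Of 4329 member values under an alternative, 208 changed sign, none of them called in either fit. In succinate mice 9 of the 19 LPS calls, and in control mice 5 of 19, were made in every setting run. Class subsets and left-out libraries hold fewer samples, and each class subset leaves a single library in at least 1 group. For the other changes the cause was not tested. At this depth and spread the smallest LPS change called was -0.28 (Hsp90b1 in succinate mice), so smaller changes may have gone uncalled.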
